A study of Mus musculus with 18 samples.

Results

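Toll-like receptors are the membrane receptors with which macrophages recognise microbial molecules, and 10 genes of the family were followed here at the level of chromatin accessibility: Tlr1, Tlr2, Tlr3, Tlr4, Tlr5, Tlr6, Tlr7, Tlr8, Tlr9 and Tlr13. Their regions were the ATAC-seq peaks that overlapped the gene body or the 25 kb on either side of it (mm9 genome, GENCODE M1 gene models), which gave 159 of the 194284 peaks in the table. All 159 passed the filter on low counts. Because Tlr1 and Tlr6 lie next to each other, as do Tlr7 and Tlr8, 12 peaks belong to the windows of more than 1 receptor gene, and 11 peaks overlap the promoter of another gene, such as Fam114a1 near Tlr6 or Alas1 near Tlr9. For 131 of the 159 peaks the closest start of a protein-coding gene was that of a receptor in the list.

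ATAC-seq measures how readily a transposase inserts into chromatin, so a higher count in a peak means a more accessible region. Every library came from bone marrow-derived macrophages (BMDMs) of Il10-/- mice on the C57BL/6J background, 12-week-old males per the study's methods, after 6 days of culture in medium with L929 conditioned medium. Cells were left untreated or received 500 nM (+)-JQ1, a small molecule that displaces BET proteins from acetylated histones, or 10 ng/mL IL-10 for 12 hours, and then LPS at 50 ng/mL or PBS for 4 hours. The 6 groups (unstimulated, JQ1, IL-10, LPS, LPS + JQ1 and LPS + IL-10) had 3 libraries each, from 3 mice. All groups share the loss of Il10, wild-type cells were not analysed here, and the deletion itself could not be checked against a wild-type library.

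Each receptor works as a dimer whose outer part binds a ligand and whose inner TIR domain recruits the adaptors MyD88 or TRIF, from which signals run to NF-kappaB, AP-1 and interferon regulatory factors. Tlr1, Tlr2 and Tlr6 sense bacterial lipopeptides, Tlr4 senses LPS together with MD-2 and CD14, and Tlr5 senses flagellin. Tlr3, Tlr7, Tlr8, Tlr9 and Tlr13 sit in endosomes and sense nucleic acids: double-stranded RNA for Tlr3, single-stranded RNA for Tlr7 and Tlr8, unmethylated CpG DNA for Tlr9 and bacterial ribosomal RNA for Tlr13.

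Total counts in peaks ran from 12020526 to 25908198 per library. The promoters of all 7 macrophage markers examined (such as Csf1r, the receptor for macrophage colony-stimulating factor, and Sfpi1, the older symbol of the gene for PU.1) had a peak. None of the 3 T cell markers had one, nor did Ly6g of neutrophils, while Elane, a neutrophil granule gene, had 20.4 to 38.3 CPM (counts scaled to the size of the library). Both dendritic cell markers had promoter peaks (Zbtb46 with 19.5 to 43.6 CPM and Flt3 with 8.16 to 13.2 CPM), as did the B cell gene Ms4a1, with 2.72 to 8.98 CPM. Libraries differed in composition: promoter peaks took 40.8 to 45.5% of counts in unstimulated libraries, 48.4 to 51.1% with JQ1 and 46.2 to 46.7% with IL-10. The shares were 45.2 to 47% with LPS, 46 to 48% with LPS + JQ1 and 42.4 to 43.8% with LPS + IL-10. The last lies within the unstimulated range, and that with LPS overlaps it. Summed over the macrophage markers, promoter accessibility was 145 to 200 CPM in unstimulated libraries and 210 to 254 CPM in the 15 others. The part of these differences in the results was not tested, and values under another scaling stand beside the results against unstimulated cells.

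Short stretches of the peaks with the main differences are shown first. Accessibility was measured over whole peaks, not within these stretches. They were read from the mm9 genome on the strand of the receptor gene, as 120-base windows that hold the most searched motifs outside annotated untranslated regions. Capitals mark matches on either strand to AP-1 (TGANTCA), PU.1 (GAGGAAGT), the interferon-stimulated response element (ISRE) or the kappaB motif. The Tlr2 window ends at the gene start and shows 2 overlapping kappaB matches 8 and 9 bases upstream of it. The Tlr9 window ends at its gene start and holds an AP-1 match. It comes from the peak across the start, not from the broader upstream region described below as the Tlr9 promoter peak. The window of the Tlr1 peak lies in the gene itself, that of the Tlr7 peak lies downstream of the gene, and the last window, between Tlr7 and Tlr8, holds none of the 4 motifs.
Tlr2 promoter, chr3:83645690-83645809, minus strand: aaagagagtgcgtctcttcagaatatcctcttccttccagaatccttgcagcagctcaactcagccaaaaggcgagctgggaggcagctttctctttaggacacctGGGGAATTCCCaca
Tlr1 peak 7.0 kb after the start, chr5:65317105-65317224, minus strand: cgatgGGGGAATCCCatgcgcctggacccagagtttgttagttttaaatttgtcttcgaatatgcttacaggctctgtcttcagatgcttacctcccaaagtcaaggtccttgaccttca
Tlr4 promoter peak, chr4:66489174-66489293, plus strand: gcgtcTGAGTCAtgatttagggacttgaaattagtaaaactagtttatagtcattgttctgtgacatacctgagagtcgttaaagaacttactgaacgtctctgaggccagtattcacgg
Tlr4 peak 96.2 kb after the start, chr4:66585149-66585268, plus strand: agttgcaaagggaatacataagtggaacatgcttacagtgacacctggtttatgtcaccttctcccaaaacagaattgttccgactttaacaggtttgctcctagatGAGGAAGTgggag
Tlr7 peak 29.5 kb after the start, chrX:163738905-163739024, minus strand: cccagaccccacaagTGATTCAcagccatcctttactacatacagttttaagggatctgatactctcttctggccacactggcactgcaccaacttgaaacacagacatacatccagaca
Tlr9 promoter, chr9:106124809-106124928, plus strand: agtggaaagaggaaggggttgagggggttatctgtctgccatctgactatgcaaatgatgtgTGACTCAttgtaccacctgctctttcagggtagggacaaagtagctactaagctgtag
Peak 16.0 kb before the Tlr8 start, chrX:163718173-163718292, minus strand: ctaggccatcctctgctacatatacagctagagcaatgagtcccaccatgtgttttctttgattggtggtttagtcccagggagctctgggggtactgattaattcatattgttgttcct

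Across the 159 peaks, 75 held an AP-1 match (47.2%, against 34.9% of all peaks), 32 an ISRE match (20.1% against 16.7%), 27 a PU.1 match (17% against 12.7%) and 26 a kappaB match (16.4% against 13.6%). Receptor peaks were wider, with a median of 1105 bp against 956 bp, and a wider peak has more room for a match.

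The first comparison asks which receptor regions opened or closed after 4 hours of LPS. Of the 159 peaks, 31 rose and 14 fell (edgeR's quasi-likelihood test, Benjamini-Hochberg adjusted p under 0.05 and a log2 fold change beyond 0.5), beside 11.7% of all tested peaks that rose and 10.2% that fell. These libraries are bulk samples, in which a change in every cell and a change in the share of cells with an open region cannot be told apart. The genes did not share these calls evenly, and a peak in 2 windows counts for both genes. Tlr1 had 7 peaks that rose of 19, Tlr7 8 of 17, Tlr9 6 of 22, Tlr2 6 of 17, Tlr6 and Tlr8 3 each and Tlr3 1 of 5, and among these genes Tlr2 alone had peaks that fell, 2 in number. Tlr4 had 8 of 28 that fell and Tlr13 4 of 17, with none that rose in either gene. In the window of Tlr5 no peak of 13 passed in either direction. All 45 calls pointed the same way in both pairs of libraries that shared a sequencing lane, those of replicates 1 and 3, and in 40 of them the 2 groups did not overlap. The calls were made from these same libraries, so such counts, here and below, describe the called peaks and are no separate test. They were not made for the called peaks outside the receptor windows.

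The split depends on the scaling. Scaled to total counts in place of TMM, 16 receptor peaks rose and 20 fell. Under that scaling, 5.9% of all promoter peaks rose and 14.6% fell, and 6.74% of distal peaks rose and 20.4% fell. The median of all peaks moved from -0.03 to -0.26 on the log2 scale. With DESeq2's size factors 35 receptor peaks rose and 13 fell. Without unstimulated replicate 2 or 3, the number that fell was 9 or 8. Each of the 45 calls kept its direction under total counts, whether or not it passed there.

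**Figure D1:**
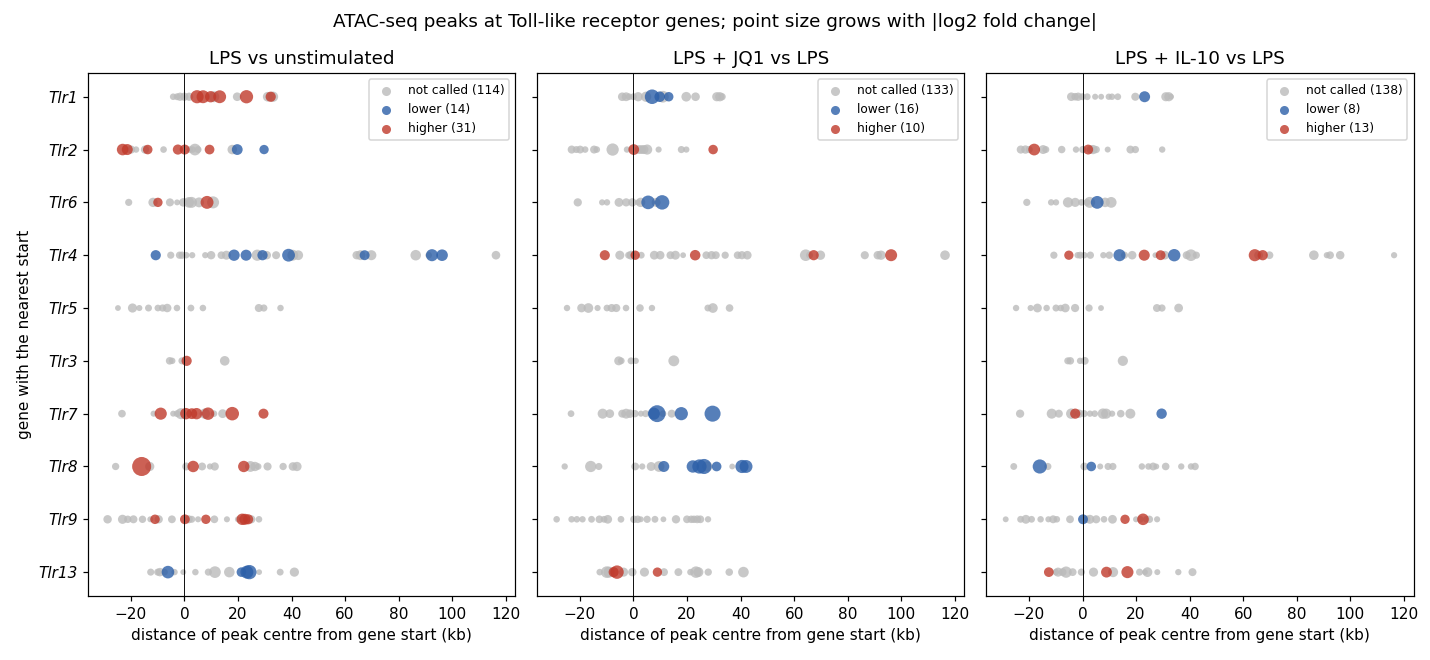
Each point is 1 of the 159 peaks, placed by the distance of its centre from the start of the nearest receptor gene (x axis, kb, positive in the direction of transcription) and coloured by its call in 3 comparisons, with larger points for larger log2 fold changes. With LPS, higher calls (31) gather at Tlr1, Tlr2, Tlr7 and Tlr9 and lower calls (14) at Tlr4 and Tlr13, and with LPS + JQ1 against LPS the lower calls (16) lie at Tlr1, Tlr6, Tlr7 and Tlr8.

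Among the lipopeptide receptors, the Tlr2 promoter peak (chr3:83645055-83646122, exon and untranslated region included) rose with LPS. It had 9.03, 13.7 and 13.6 CPM in the unstimulated libraries and 20.3, 20.2 and 16.4 CPM with LPS, groups that do not overlap, a log2 fold change of 0.64 ± 0.14 (SE, adjusted p = 0.000307, edgeR). The change was 0.48 without unstimulated replicate 1 and 0.42 with total counts, both under the fold threshold. A peak 23.1 kb upstream of Tlr2 rose from 4.08, 4.34 and 2.96 CPM to 7.4, 7.29 and 7.53 CPM, a log2 fold change of 0.97 ± 0.19 (adjusted p = 1.93e-05). On the other side, a peak 29.7 kb past the start fell by 0.52 ± 0.15 on the log2 scale (adjusted p = 0.00752, edgeR), a call lost with DESeq2, where it was -0.50, and without unstimulated replicate 2 (-0.46), unstimulated replicate 3 (-0.44) or LPS replicate 3 (-0.43).

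At Tlr1, which pairs with Tlr2 to bind triacylated lipopeptides, the promoter peak did not pass (log2 fold change 0.34 ± 0.16, adjusted p = 0.0925, edgeR), while 7 other peaks rose, 3 of them described here. The peak 7.0 kb after the start (chr5:65315384-65318716) had 2.94, 2.58 and 1.86 CPM unstimulated and 4.92, 6.54 and 6.39 CPM with LPS, a log2 fold change of 1.28 ± 0.22 (adjusted p = 1.9e-06). Its neighbour 9.8 kb after the start went from 5.49, 7.09 and 8.77 CPM to 11.8, 14.6 and 14.0 CPM (0.91 ± 0.15, adjusted p = 1.17e-06, edgeR). A further peak, at 13.2 kb, went from 3.15, 3.9 and 3.4 CPM to 8.27, 9.24 and 7.76 CPM (1.27 ± 0.18, adjusted p = 1.04e-08, edgeR). In each of these peaks all LPS libraries were above all unstimulated ones. Tlr6, the partner of Tlr2 for diacylated lipopeptides, had a promoter change of 0.38 ± 0.15 (adjusted p = 0.0554, edgeR), which passed without unstimulated replicate 3 (0.53). The peak 9.9 kb upstream of it rose by 0.52 ± 0.14 (adjusted p = 0.003, edgeR) and lies over the promoter of Fam114a1 and over Mir574. Its change was 0.38 without unstimulated replicate 1, 0.49 without LPS replicate 1 and 0.30 with total counts, and none of these passed.

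Tlr4, the receptor for the stimulus itself, went the other way inside its long gene body. The promoter peak had 17.8, 21.4 and 33.4 CPM unstimulated and 26.8, 26.5 and 24.9 CPM with LPS, overlapping groups with a log2 difference of 0.10 ± 0.15 (adjusted p = 0.647, edgeR). An intronic peak 23.0 kb after the start (chr4:66509084-66514217) had 14.9, 17.9 and 20.7 CPM unstimulated and 10.8, 9.99 and 8.84 CPM with LPS. This was a log2 fold change of -0.85 ± 0.14 (adjusted p = 9.31e-07, edgeR). The peak 96.2 kb after the start had 3.81, 3.24 and 3.34 CPM and then 1.65, 1.95 and 1.67 CPM, a log2 fold change of -0.97 ± 0.24 (adjusted p = 0.000937, edgeR). Another, at 67.3 kb, changed by -0.63 ± 0.20 (adjusted p = 0.0131, edgeR). Neither of the first pair of peaks overlapped between groups. Summed over the 28 peaks of the window, Tlr4 had 116 ± 16.9 CPM (SD, n = 3) unstimulated and 92.5 ± 1.53 CPM with LPS.

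The flagellin receptor Tlr5 had a broad promoter peak of 7461 bp that stayed between 28.5 and 30.2 CPM unstimulated and between 30.4 and 34 CPM with LPS (log2 fold change 0.13 ± 0.13, adjusted p = 0.508, edgeR). All 13 peaks of its window lay between -0.19 and 0.49 on the log2 scale in this comparison.

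Of the nucleic acid receptors, Tlr7 changed most at its promoter. That peak (chrX:163766522-163769378) had 11.2, 12.3 and 16.3 CPM unstimulated and 24.7, 26.4 and 25.4 CPM with LPS, a log2 fold change of 0.94 ± 0.15 (adjusted p = 1.16e-07, edgeR). With total counts it was 0.72 and still passed. The peak 8.9 kb upstream of Tlr7 rose by 1.10 ± 0.19 (adjusted p = 1.43e-06, edgeR). At Tlr8 the promoter did not pass (0.29 ± 0.15, adjusted p = 0.151, edgeR), but an intronic peak 3.3 kb after the start rose from 3.41, 4.73 and 5.81 CPM to 8.59, 9.09 and 9.32 CPM (0.94 ± 0.17, adjusted p = 8.01e-06, edgeR).

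The Tlr3 promoter had 8.1, 12.0 and 15.8 CPM unstimulated and 20.8, 19.5 and 17.7 CPM with LPS (0.68 ± 0.15, adjusted p = 0.000203, edgeR), and its change was 0.48 without unstimulated replicate 1 and 0.47 with total counts, under the fold threshold. For Tlr9 the promoter peak with the highest level is a region of 8068 bp that ends upstream of the gene and changed by 0.27 ± 0.14 (adjusted p = 0.151, edgeR). The peak across the Tlr9 start (chr9:106124480-106125726) was therefore described as well, and it went from 10.9, 9.01 and 12.4 CPM to 15.3, 15.2 and 18.6 CPM (0.60 ± 0.15, adjusted p = 0.00092, edgeR), or 0.38 with total counts. The largest Tlr9 rise under the naming rule, 22.6 kb after the start, lies at the Alas1 promoter (0.85 ± 0.25, adjusted p = 0.00598, edgeR) and was 0.57 without unstimulated replicate 2 or LPS replicate 3, where it was no longer called. Tlr13 had a promoter change of 0.01 ± 0.18 (adjusted p = 0.978, edgeR). Its largest named fall was 21.3 kb after the start, where levels of 10.4, 9.23 and 11.2 CPM became 7.67, 7.14 and 5.97 CPM (-0.57 ± 0.16, adjusted p = 0.00402, edgeR). That call was lost without unstimulated replicate 3 (-0.50) or LPS replicate 3 (-0.48).

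The peak with the largest log2 fold change of all 159 lies between Tlr7 and Tlr8, 16.0 kb upstream of Tlr8. It is 530 bp wide and had few counts, 0.201, 0 and 0.164 CPM unstimulated and 1.06, 1.35 and 0.836 CPM with LPS. The fitted value of 3.14 ± 0.61 (adjusted p = 2.64e-05, edgeR) rests on an unstimulated group near 0.

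**Figure D2:**
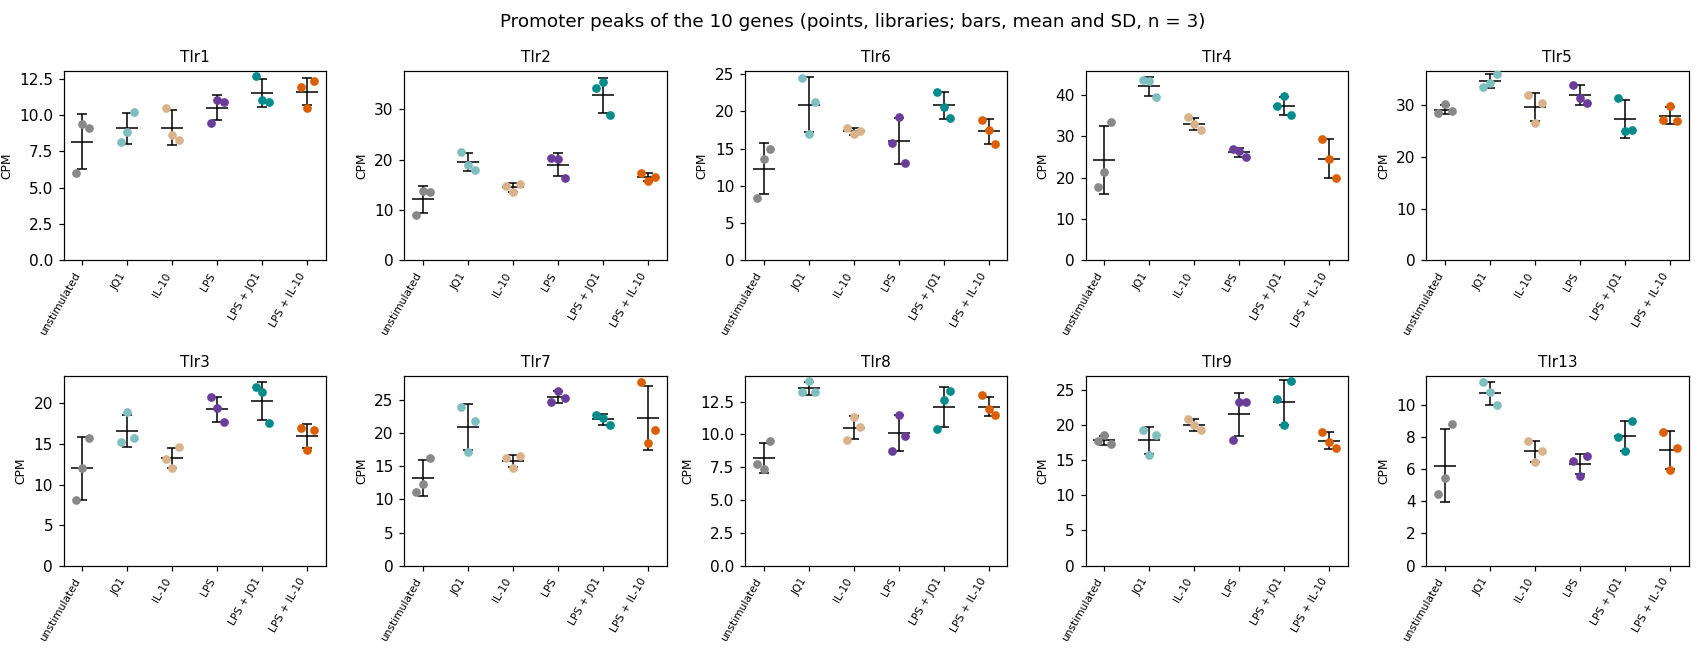
Accessibility (CPM, y axis from 0) of the promoter peak of each receptor gene in the 6 groups, with points for libraries and bars for the mean and SD of 3. Tlr2, Tlr3 and Tlr7 are higher with LPS than in unstimulated cells, Tlr5 stays between 25.1 and 36.1 CPM in all libraries, and JQ1 libraries lie above unstimulated ones at Tlr2, Tlr4, Tlr6, Tlr7, Tlr8 and Tlr13. The Tlr9 panel shows the broad region upstream of the gene, not the peak across its start.

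Per kb of peak, the promoters of unstimulated cells were ordered Tlr4 (17.8 ± 5.99 CPM per kb), Tlr6 (13.5 ± 3.75), Tlr2 (11.3 ± 2.49), Tlr3 (5.95 ± 1.92), Tlr7 (4.64 ± 0.952), Tlr5 (3.91 ± 0.115), Tlr1 (3.78 ± 0.863), Tlr13 (3.46 ± 1.27), Tlr8 (2.92 ± 0.40) and Tlr9 (2.21 ± 0.0765). The value for Tlr9 is that of the broad region upstream of the gene, and its start peak had 8.64 CPM per kb, above Tlr3. Libraries of neighbours in this order overlapped except between Tlr2 and Tlr3 and between Tlr8 and Tlr9. The order depends on peak width, which ran from 908 bp at Tlr6 to 8068 bp at Tlr9. Over the whole peak, Tlr5 had a mean of 29.2 CPM and Tlr4 one of 24.2 CPM in unstimulated libraries. In LPS + JQ1 libraries the Tlr2 promoter came first, at 30.8 ± 3.25 CPM per kb. Over the 18 libraries the promoters most alike in log2 CPM were Tlr2 and Tlr3 (Pearson r = 0.83) and Tlr4 and Tlr13 (r = 0.82). Tlr5 was least like the others, with 0.29 as its highest r, to Tlr13. These r values are descriptions, since the libraries share groups, lanes and composition.

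The second comparison asks how BET inhibition before LPS altered these regions. Against LPS alone, 10 receptor peaks were higher and 16 lower in LPS + JQ1, beside 1.74% and 3.49% of all tested peaks. Lower peaks were at Tlr8 (7 of 16), Tlr1 (5 of 19), Tlr7 (4 of 17) and Tlr6 (2 of 17), and higher peaks at Tlr4 (5 of 28), Tlr13 (3 of 17) and Tlr2 (2 of 17). No peak of Tlr3, Tlr5 or Tlr9 passed. All 26 calls had the same direction in the 3 same-numbered pairs, which share a lane, and no groups overlapped. Of the 31 peaks that rose with LPS 7 were lower with JQ1, and of the 14 that fell 6 were higher. Both comparisons share the LPS libraries, so these counts are not independent. The same counts were not made over all tested peaks, so they do not set the receptor peaks apart from others. Leaving out LPS replicate 2 or LPS + JQ1 replicate 2 left 9 lower peaks, and leaving out LPS + JQ1 replicate 2 or 3 left 6 higher peaks.

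Downstream of Tlr7, a region of 6884 bp (chrX:163735523-163742407, 29.5 kb after the start and outside the gene) fell furthest among the named peaks. It had 16.0, 16.7 and 18.5 CPM with LPS and 3.84, 2.95 and 4.65 CPM with LPS + JQ1, a log2 fold change of -2.14 ± 0.17 (adjusted p = 2.48e-19, edgeR). JQ1 without LPS lowered it too, from 9.97, 10.1 and 12.4 CPM to 6.02, 4.76 and 6.43 CPM (-0.91 ± 0.16, adjusted p = 1.46e-05, edgeR). The region holds 4 AP-1, 2 ISRE, 1 PU.1 and 1 kappaB match. The Tlr1 peak at 7.0 kb returned to 1.54, 1.42 and 2.33 CPM (-1.71 ± 0.23, adjusted p = 8.15e-09, edgeR) and that at 9.8 kb to 8.75, 8.35 and 7.17 CPM (-0.75 ± 0.15, adjusted p = 0.000267, edgeR). In both, every LPS + JQ1 library was below every LPS library. A region 31.0 kb past the start of Tlr8 had 17.1, 22.3 and 19.7 CPM with LPS and 11.8, 12.1 and 15.2 CPM with LPS + JQ1 (-0.58 ± 0.15, adjusted p = 0.00491, edgeR), a call lost without LPS replicate 2 (-0.48) or LPS + JQ1 replicate 2 (-0.53).

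The Tlr2 promoter moved in the opposite direction and was highest in LPS + JQ1, with 34.2, 35.4 and 28.9 CPM against 20.3, 20.2 and 16.4 CPM with LPS (0.79 ± 0.14, adjusted p = 1.44e-05, edgeR). The Tlr4 promoter had 37.3, 39.6 and 35.2 CPM against 26.8, 26.5 and 24.9 CPM (0.52 ± 0.14, adjusted p = 0.0141, edgeR). JQ1 without LPS raised both promoters too, Tlr2 by 0.68 ± 0.15 and Tlr4 by 0.79 ± 0.14, values that depend on the scaling, as given below. The interaction term did not pass at Tlr2 (0.11 ± 0.20, adjusted p = 0.859, edgeR) or at Tlr4 (-0.28 ± 0.20, adjusted p = 0.534, edgeR). Within the Tlr4 gene, the peak at 23.0 kb had 16.3, 17.2 and 15.9 CPM (0.74 ± 0.14, adjusted p = 0.000119, edgeR). That at 96.2 kb had 3.84, 3.11 and 4.07 CPM (1.06 ± 0.23, adjusted p = 0.000915, edgeR). Both were near their unstimulated levels and above all LPS libraries. The peak at 67.3 kb rose by 0.68 ± 0.20 (adjusted p = 0.0207, edgeR), a call lost without LPS replicate 1 (0.66), LPS replicate 2 (0.56) or LPS + JQ1 replicate 3 (0.60).

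**Figure D3:**
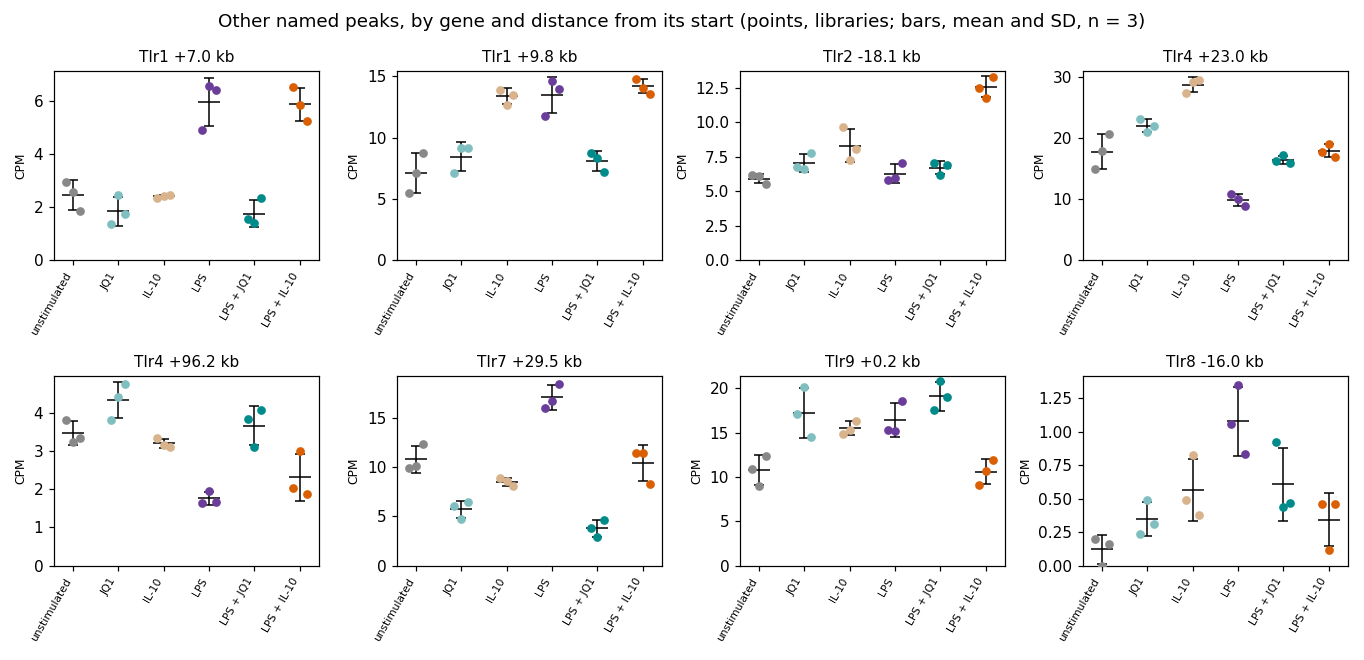
Accessibility (CPM, y axis from 0) of 8 other named peaks in the 6 groups, titled by gene and distance from its start, with points for libraries and bars for the mean and SD of 3. The Tlr7 peak at 29.5 kb is at 16.0 to 18.5 CPM with LPS and at 2.95 to 4.65 CPM with LPS + JQ1, while the Tlr2 peak at -18.1 kb is highest with LPS + IL-10.

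The third comparison asks the same of IL-10. Against LPS alone, 13 receptor peaks were higher and 8 lower in LPS + IL-10, which is 8.18% and 5.03% of them, beside 4.26% and 4.51% of all tested peaks. Tlr4 had 5 higher and 2 lower peaks, Tlr13 3 higher, Tlr2 2 higher, Tlr9 2 higher and 1 lower, Tlr7 1 higher and 2 lower, and Tlr1, Tlr6 and Tlr8 1 or 2 lower each. Of the 21 calls 20 had the same direction in the 3 same-numbered pairs. The number of higher peaks was 6, 8, 7 and 7 without LPS replicate 1, LPS replicate 2, LPS + IL-10 replicate 1 and LPS + IL-10 replicate 2. The number of lower peaks was 5 without any 1 of the 3 LPS libraries or LPS + IL-10 replicate 2, and 4 without LPS + IL-10 replicate 3.

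The largest named rise was 18.1 kb upstream of Tlr2, in a peak that LPS alone did not move (0.08 ± 0.17, adjusted p = 0.778, edgeR). It had 5.79, 5.99 and 7.05 CPM with LPS and 12.5, 11.8 and 13.3 CPM with LPS + IL-10, a log2 fold change of 1.01 ± 0.15 (adjusted p = 4.34e-07, edgeR). IL-10 without LPS changed this peak by 0.49 ± 0.16 (adjusted p = 0.0333, edgeR), just under the fold threshold. Its interaction term did not pass (0.52 ± 0.22, adjusted p = 0.153, edgeR). The Tlr4 peak at 23.0 kb rose to 17.8, 19.1 and 17.0 CPM (0.86 ± 0.14, adjusted p = 2.38e-06, edgeR). An intronic Tlr13 peak 8.9 kb after the start rose from 5.83, 7.34 and 6.15 CPM to 12.0, 11.4 and 10.4 CPM (0.81 ± 0.15, adjusted p = 5.94e-05, edgeR). The peak at the Alas1 promoter in the Tlr9 window rose by 0.97 ± 0.21 (adjusted p = 0.000474, edgeR).

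In the lower direction, the Tlr9 start peak had 15.3, 15.2 and 18.6 CPM with LPS and 9.09, 10.7 and 11.9 CPM with LPS + IL-10, close to its unstimulated level (-0.62 ± 0.14, adjusted p = 0.00122, edgeR). The Tlr7 peak at 29.5 kb went to 11.4, 11.4 and 8.27 CPM (-0.72 ± 0.15, adjusted p = 0.000212, edgeR). For the Tlr8 peak at 3.3 kb the values were 6.1, 6.03 and 6.11 CPM (-0.56 ± 0.17, adjusted p = 0.0149, edgeR), a call lost without LPS replicate 3 (-0.54) or with total counts (-0.50). The Tlr1 peak at 7.0 kb stayed at 6.5, 5.85 and 5.24 CPM (-0.02 ± 0.20, adjusted p = 0.972, edgeR).

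Compared directly under LPS, JQ1 and IL-10 differed at 20 receptor peaks, 7 higher and 13 lower with JQ1, beside 3.43% and 4.68% of all tested peaks. The Tlr2 promoter was higher with JQ1 by 0.98 ± 0.14 (adjusted p = 3.51e-08, edgeR), the Tlr9 start peak by 0.85 ± 0.14 (adjusted p = 4.68e-06, edgeR) and the Tlr4 promoter by 0.60 ± 0.14 (adjusted p = 0.00193, edgeR). Lower with JQ1 were the Tlr1 peak at 7.0 kb (-1.69 ± 0.23, adjusted p = 7.85e-09, edgeR), the Tlr7 peak at 29.5 kb (-1.42 ± 0.17, adjusted p = 1.55e-10, edgeR) and the Tlr2 peak at -18.1 kb (-0.90 ± 0.15, adjusted p = 6.62e-06, edgeR). At the Tlr4 peak at 23.0 kb the difference was -0.12 ± 0.14 (adjusted p = 0.661, edgeR).

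Without LPS, JQ1 raised 24 receptor peaks and lowered 2, beside 7.85% and 3.15% of all tested peaks. Promoters were among those that rose. Of the 10 promoter peaks, each the one of highest level at its gene, 6 rose, at Tlr2, Tlr4, Tlr6, Tlr7, Tlr8 and Tlr13. Of the 28 receptor peaks that the authors classed as promoter, 10 rose (35.7%), beside 22.9% of all tested promoter peaks. Of the 131 classed as distal, 14 rose (10.7%), beside 4.34% of all distal peaks. The promoter share of all counts was higher with JQ1 too, as given above, and its part in these rises was not tested. The Tlr9 start peak, added after its values were seen, rose as well (0.67 ± 0.15, adjusted p = 0.000321, edgeR). The Tlr4 promoter had 43.5, 43.4 and 39.5 CPM with JQ1 against 17.8, 21.4 and 33.4 CPM (0.79 ± 0.14, adjusted p = 1.48e-05, edgeR). These changes depend on the scaling. With total counts 5 receptor peaks rose and 16 fell. Beside them, 6.57% of all promoter peaks rose and 12.1% fell, and 0.901% of distal peaks rose and 14.6% fell. Of the 10 promoter peaks 2 rose there (Tlr4 by 0.53 and Tlr13 by 0.51). The Tlr9 start peak was at 0.39, under the fold threshold, and the median of all peaks was -0.37 in place of -0.09. Without unstimulated replicate 1 the count was 6 of 10.

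IL-10 without LPS raised 14 receptor peaks and lowered none, beside 5.16% and 3.5% of all tested peaks. The Tlr1 peak at 9.8 kb had 13.9, 12.7 and 13.5 CPM with IL-10 (0.90 ± 0.15, adjusted p = 1.75e-05, edgeR), within the range of the LPS libraries. The Tlr4 peak at 23.0 kb had 27.4, 29.3 and 29.6 CPM (0.69 ± 0.13, adjusted p = 0.000198, edgeR). With total counts 5 receptor peaks rose and 2 fell. Beside them, 1.05% of all promoter peaks rose and 6.18% fell, and 1.32% of distal peaks rose and 9.13% fell. Without unstimulated replicate 3, 27 receptor peaks were called.

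**Figure D4:**
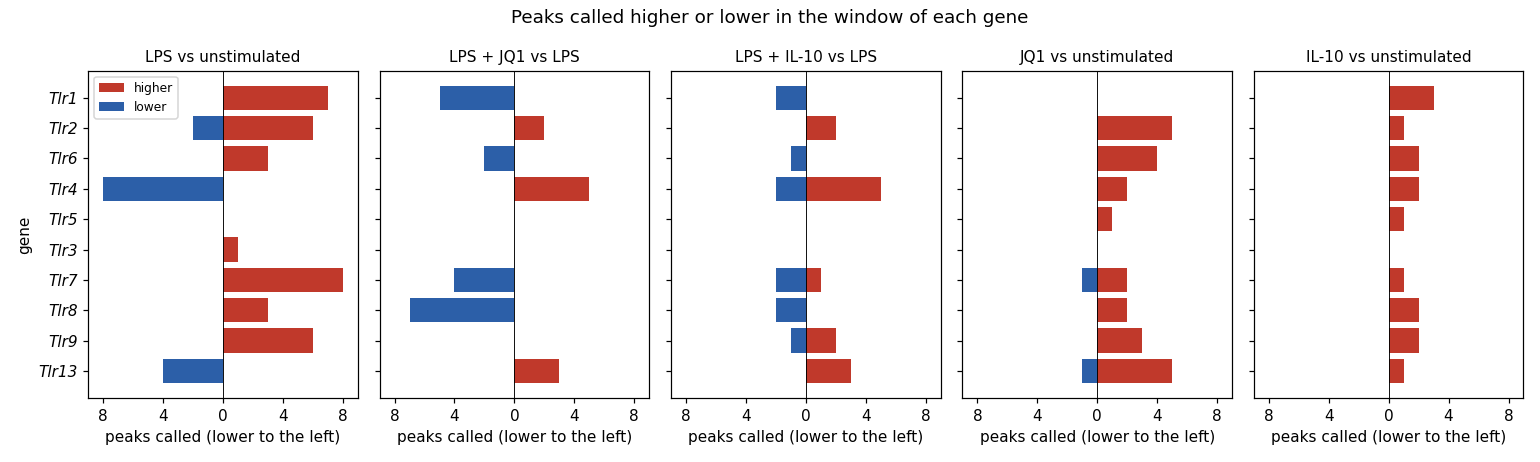
Number of peaks called higher (to the right) or lower (to the left) in the window of each receptor gene, in 5 comparisons, where a peak in 2 windows counts in both. With LPS, Tlr4 has 8 lower and Tlr7 8 higher peaks, and with LPS + JQ1 against LPS, Tlr8 has 7 lower and Tlr4 5 higher peaks.

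An interaction term tested whether the LPS change differed with treatment. The term is the change with treatment under LPS less that without LPS. A lower term can therefore hold a rise with treatment in unstimulated cells, a fall under LPS or both. For JQ1, 11 receptor peaks passed (6.92%), beside 3.84% of all tested peaks. Of these 1 was higher and 10 were lower (0.629% and 6.29%), beside 0.649% and 3.19%. For IL-10, 11 passed (6.92%), near and below the 7.91% of all tested peaks. Again 1 was higher and 10 were lower, beside 2.01% and 5.9%. With JQ1 the terms of largest size were those of the Tlr1 peak at 7.0 kb (-1.29 ± 0.34, adjusted p = 0.0187, edgeR), the Tlr7 peak at 29.5 kb (-1.23 ± 0.23, adjusted p = 0.000859), the Tlr1 peak at 9.8 kb (-0.99 ± 0.22, adjusted p = 0.00544) and the Tlr7 promoter (-0.87 ± 0.20, adjusted p = 0.00765). With IL-10 they were the sparse peak between Tlr7 and Tlr8 (-3.80 ± 0.82, adjusted p = 0.000864, edgeR), a Tlr4 peak 13.8 kb after the start (-1.53 ± 0.41, adjusted p = 0.00923), the Tlr9 start peak (-1.15 ± 0.21, adjusted p = 6.45e-05) and the Tlr1 peak at 13.2 kb (-0.86 ± 0.25, adjusted p = 0.0154). The call of the Tlr1 peak at 7.0 kb was lost with total counts (-1.0), without JQ1 replicate 2 (-1.05) and without LPS + JQ1 replicate 2 (-1.14). That of the Tlr1 peak at 13.2 kb was lost with total counts (-0.59) and without LPS replicate 2 or LPS + IL-10 replicate 3 (-0.79 in both), and that of the Tlr4 peak without LPS replicate 3 (-1.29). These terms use the unstimulated libraries, and with total counts the splits were 5 higher and 4 lower for JQ1 and 8 higher and 6 lower for IL-10. Beside them, for JQ1 2.71% of all promoter peaks were higher and 3.35% lower, and 2.34% and 0.388% of distal peaks. For IL-10 these shares were 5.71% and 8.06% of promoter peaks and 6.42% and 1.39% of distal peaks. The JQ1 count was 25 without unstimulated replicate 3 and 4 without JQ1 replicate 2, and the IL-10 count was 27 without unstimulated replicate 3.

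The rest of the pathway, 28 genes with 633 peaks that are not receptor peaks of the list, gives a setting for these counts. With LPS 111 of the 633 rose (17.5%) and 31 fell (4.9%), beside 11.7% and 10.2% of all tested peaks. The largest counts were at Irak2, a kinase downstream of MyD88 (20 of 30 rose), Tnfaip3, the ubiquitin-editing inhibitor of NF-kappaB (16 of 23), Irak3, an inhibitory kinase-like protein (13 of 48), and Irf7, a driver of interferon genes (8 of 14). Cd36, a scavenger receptor that assists Tlr2, had 10 of 43 that fell. The adaptor Myd88 had 1 of 17 up and 1 down.

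With LPS + JQ1 against LPS, 11 of the 633 were higher (1.74%) and 35 lower (5.53%), beside 1.74% and 3.49% of all tested peaks. Of the lower ones 14 were at Cd180, a receptor relative that binds Ly86, 6 at Tnfaip3 and 5 at Irf7, while Cd14, the co-receptor that hands LPS to Tlr4, had 4 of 24 higher. With LPS + IL-10, 27 were higher (4.27%) and 46 lower (7.27%), beside 4.26% and 4.51% of all tested peaks. At Irak3 18 of 48 were higher, and at Cd180 13 of 35 were lower.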

How the data were processed

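ATAC-seq libraries (6 groups, 3 libraries each) were processed by the authors with PEPATAC: reads were aligned to mm9 with Bowtie2, peaks were called per sample with MACS2 and classed as promoter or distal with ChIPseeker. The deposited tables hold raw counts per peak of the union set. 6 columns that match no sample were not used. Counts in 194230 of 194284 peaks passing filterByExpr were fitted with edgeR 4.0.16 (R 4.3.3; TMM, quasi-likelihood test, all 18 libraries in 1 fit) with Benjamini-Hochberg adjustment over all peaks. A call needed an adjusted p under 0.05 and a log2 fold change beyond 0.5. CPM are TMM-scaled. The fit was tested on simulated data. DESeq2 1.42.0 was an alternative. Coordinates are as in the table.

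The design text calls the libraries of different conditions biologically matched, so a replicate number was read as a mouse, although no label ties a number to an animal. Deviations of same-numbered libraries from group means correlated at a mean r of 0.00573 (45 pairs, -0.0819 to 0.0644), so no pairing was seen over all peaks. Other pairs had -0.00286, a value tied to the first because deviations sum to 0 within a group. A shared mouse may still go unseen in such a correlation. Counts limit precision at 12020526 to 25908198 per library.

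Named peaks were each gene's promoter peak, its largest LPS rise and fall, the 4 largest changes each way with JQ1 or IL-10 under LPS (at least 50 normalized counts, same direction in 3 pairs) and the 4 largest interaction terms. The Tlr9 start peak was added to the promoters after its values were seen. Members and lists were chosen with earlier results of these data known.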

Additional observations from a re-analysis of the deposited data

Results flagged for a closer look

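The LPS change differed with treatment at 22 receptor peak and treatment combinations, by the interaction term of the edgeR fit (adjusted p under 0.05 over all peaks and a size beyond 0.5 on the log2 scale). For each treatment this was 11 peaks (6.92%), beside 3.84% of all tested peaks with JQ1 and 7.91% with IL-10. Of all tested peaks, 3.19% were lower and 0.649% higher with JQ1, and 5.9% and 2.01% with IL-10. Peaks are given by gene and distance from its start. A term is the change with treatment under LPS less that without LPS, so a lower term need not mean lower accessibility under LPS. With IL-10, Tlr1 +9.8 kb changed by 0.90 without LPS and 0.07 under LPS, and Tlr4 +13.8 kb by 0.45 and -1.08. With JQ1 the terms were -1.29 at Tlr1 +7.0 kb, -0.99 at Tlr1 +9.8 kb, -0.64 at Tlr2 -21.3 kb, -0.82 at Tlr6 -9.9 kb, -0.87 at Tlr7 +0.5 kb, -0.79 at Tlr7 +14.3 kb, -1.23 at Tlr7 +29.5 kb, -0.81 at Tlr8 +3.3 kb, -0.76 at Tlr8 +31.0 kb, -0.65 at Tlr9 -11.0 kb and 0.76 at Tlr9 +15.9 kb. With IL-10 they were -0.83 at Tlr1 +9.8 kb, -0.86 at Tlr1 +13.2 kb, -0.83 at Tlr2 -21.3 kb, -1.53 at Tlr4 +13.8 kb, -0.61 at Tlr6 -9.9 kb, -3.80 at Tlr8 -16.0 kb, -0.67 at Tlr8 +31.0 kb, -0.75 at Tlr9 -11.0 kb, -1.15 at Tlr9 +0.2 kb, -0.77 at Tlr9 +8.0 kb and 0.79 at Tlr9 +15.9 kb. Of these peaks, the one at -16.0 kb from Tlr8 has at most 1.35 CPM in any library, and the one at -9.9 kb from Tlr6 overlaps the Fam114a1 promoter. The JQ1 call at Tlr1 +7.0 kb was lost under some other settings. So were the IL-10 calls at Tlr1 +13.2 kb, Tlr4 +13.8 kb and Tlr8 -16.0 kb. Over the settings, single calls were followed only for the 4 terms of largest size with each treatment, not for the others listed. With total counts the split by direction moved for both treatments, as given above. Groups of 3 libraries are too small for a test of single outlying libraries.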

How the results depend on the processing

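The totals of called receptor peaks stayed within 1.5 times of the value reported except as follows, though a total can hide a change of direction. With total counts, 16 peaks rose with LPS (31 as reported) and 7 were called for IL-10 without LPS (14). The split by direction also moved there, from 24 higher and 2 lower to 5 and 16 for JQ1 without LPS, and from 1 higher and 10 lower to 5 and 4 for the JQ1 interaction and to 8 and 6 for the IL-10 interaction. Shares of all promoter and distal peaks moved with this scaling too, as given with each comparison above. With at least 10 counts in every library, which left 113 of the 159 peaks, 9 were lower with LPS + JQ1 (16) and 8 called for IL-10 without LPS. Peaks within 25 kb of a gene start gave 8 lower with LPS (14), and peaks nearest to a receptor start gave 7 for each interaction (11). The JQ1 interaction count was 18 with DESeq2 and 6 with only the groups compared. The replicate block gave 33 higher and 14 lower with LPS, 11 and 16 with LPS + JQ1, 12 and 8 with LPS + IL-10, and 9 for the JQ1 interaction, and changed no call of a named peak. Leaving out 1 library at a time gave 25 to 35 higher and 8 to 14 lower with LPS, 6 to 12 higher and 9 to 16 lower with LPS + JQ1, 6 to 14 higher and 4 to 8 lower with LPS + IL-10, 22 to 37 called for JQ1 and 10 to 27 for IL-10 without LPS, 4 to 25 for the JQ1 interaction, 8 to 27 for the IL-10 interaction and 16 to 22 between JQ1 and IL-10 under LPS. Over the named peaks, 1058 values kept their call, 32 lost it, 1 gained it and none reversed. The Tlr8 peak at -16.0 kb lost its IL-10 interaction call with DESeq2 (-3.90). Apart from the filter and the windows, which leave fewer peaks, the cause was not tested.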
